A study of Homo sapiens with 6 samples.

Results

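SFN, which encodes 14-3-3σ (stratifin), and the 6 YWHA genes encode the 7 human 14-3-3 proteins. All 7 were found by symbol among the 27470 genes of the counts table, and all 7 were among the 12233 genes that passed the filter on low counts and were tested. SFN was selected on its measured fall of about 4-fold between the groups compared here, so its values are given as a description with no test. YWHAB, YWHAE, YWHAG, YWHAH, YWHAQ and YWHAZ were taken by family name, and their changes were tested. The libraries came from 22Rv1-ABHD5 cells, a human prostate cancer line that carries an ABHD5 transgene stably behind a doxycycline (Dox)-inducible promoter on the lentiviral vector pInducer20. The sources used here do not say whether the line is 1 clone. The control group was the same cells without Dox (3 libraries) and the ABHD5 overexpression group was these cells with Dox (3 libraries), harvested after 48 h. No libraries of parent cells given Dox were used here, so an effect of Dox and an effect of ABHD5 cannot be told apart. In bulk RNA, fewer cells of a type and less RNA per cell cannot be told apart either.

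The 14-3-3 proteins are acidic adaptors that work as dimers and bind partners at phosphorylated serine or threonine, which holds the partner in the cytoplasm, masks a surface or changes its activity. SFN mainly forms dimers with itself, is largely restricted to epithelial cells, is a transcriptional target of p53 and holds the CDK1-cyclin B complex outside the nucleus after DNA damage. Its gene is known for CpG methylation in many carcinomas, prostate cancer included. The YWHA genes encode the β, ε, γ, η, θ and ζ proteins, which are expressed in most tissues and pair with one another.

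The sequence ahead of SFN is shown because p53 control and CpG methylation are what the gene is known for. Matches to the 20-base p53 consensus were searched on hg38 in the 3000 bases before the SFN start, with no spacer and at most 3 mismatches. Repeats split by a spacer were not searched. The window held 2 matches, at chr1:26860664-26860683 on the + strand, 2485 bases before the start, and at chr1:26861330-26861349 on the + strand, 1819 bases before it. Capitals mark the bases that fit the consensus, and the small letters are the mismatches.
SFN, 2485 bases before the start: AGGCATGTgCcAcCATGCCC
SFN, 1819 bases before the start: GcAtTAGCCCAGACATGTCC
The same search found at least 1 match before 50.4% of 20033 protein-coding genes and at least 2 before 16.6%, so such matches are common, and binding was not measured here.

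The 250 bases directly before the start are shown for SFN, chr1:26862899-26863148 on the + strand, and for YWHAB, chr20:44885455-44885704 on the + strand, because they differ in CG dinucleotides, the sites of CpG methylation. They were taken from RefSeq (GRCh38.p14), with each CG in capitals.
SFN: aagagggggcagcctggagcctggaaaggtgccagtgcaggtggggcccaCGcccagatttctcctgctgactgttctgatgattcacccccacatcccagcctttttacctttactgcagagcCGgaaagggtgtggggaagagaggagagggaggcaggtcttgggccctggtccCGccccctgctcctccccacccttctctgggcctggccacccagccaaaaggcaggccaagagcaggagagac
YWHAB: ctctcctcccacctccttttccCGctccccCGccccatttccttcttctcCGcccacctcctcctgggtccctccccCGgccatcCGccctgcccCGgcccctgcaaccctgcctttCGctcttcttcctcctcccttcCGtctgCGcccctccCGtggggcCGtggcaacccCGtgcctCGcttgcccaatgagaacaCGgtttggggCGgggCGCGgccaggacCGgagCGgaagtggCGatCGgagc
SFN held 3 CG dinucleotides, and 22.9% of 35116 RefSeq promoters of this length held fewer. YWHAB held 21, YWHAG 23, YWHAQ 28, YWHAE 29 and YWHAH 34, against a median of 11 over all promoters. The GC box (GGGCGG, or CCGCCC on the other strand) occurred 1 time for SFN and YWHAE, 3 times for YWHAH and 4 times for YWHAB, YWHAG and YWHAQ, and 42.6% of all promoters held it. TATAAA, read on both strands, occurred only before YWHAH among the 6 genes examined, and 10.7% of all promoters held it. Only these 250 bases were counted, not the gene that follows them, so the counts do not give the CG content of SFN as a whole. Methylation was not measured in these libraries.

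In GENCODE 44, SFN (chromosome 1 from 26863149 to 26864456, + strand) is a gene of 1 exon encoding 248 residues. YWHAB on chromosome 20, YWHAE on chromosome 17 and YWHAQ on chromosome 2 have 6 exons each, and YWHAG on chromosome 7 and YWHAH on chromosome 22 have 2. The SFN protein was 60.5% identical to that of YWHAE and 71.0% identical to that of YWHAZ, the lowest and highest of its 6 pairs. The 15 pairs among the YWHA proteins were 63.9% to 87.7% identical, with YWHAB and YWHAZ highest. YWHAE was as distant from the others as SFN, at 60.5% to 68.2% identity in its 6 pairs. Of the 248 SFN residues, 120 were identical in all 7 proteins, and 13 were shared by the 6 YWHA proteins but different in SFN.

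The library kit primes at poly(A) tails, and each transcript gives about 1 fragment near its 3′ end whatever its length. The values below are CPM (the counts of a library scaled to a common total) after TMM normalization, not divided by length. Between 3394672 and 7271771 reads were counted on genes per library, which puts 3 counts, taken as the limit of detection, at 0.413 to 0.884 CPM. The share of listed reads outside any gene was 32.5% to 34.6% in the controls and 35.6% to 39.5% with Dox. Replicates differed by more than sampling noise (chi-square per degree of freedom 4.35 to 12.2). The labels do not say whether they were separate cultures, so p-values measure only the spread between these libraries, which may be technical. ABHD5, the gene under the Dox promoter, had 58.0 to 63.5 CPM in the control libraries and 91.7 to 130.8 CPM with Dox. It rose by 0.91 on the log2 scale (standard error 0.15, edgeR adjusted p = 1.978e-04). Whether reads near the 3′ end of the transgene were counted on this gene is not stated. The rise is thus not a measure of the size of the transgene's induction. All 9 luminal prostate markers were measured, and their sum was 1721 to 1822 CPM without Dox and 1128 to 1254 with Dox, a fall that moved with that of SFN and whose part in it was not tested. The basal markers KRT5 and KRT14 had no reads in any library, and the leukocyte markers summed to 3.13 to 5.27 CPM without Dox and 3.94 to 5.84 with Dox.

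SFN was the most abundant 14-3-3 transcript without Dox and only the third with Dox. Its level was 1665, 2139 and 1582 CPM in replicates 1, 2 and 3 without Dox, from 6373, 6896 and 9060 reads. With Dox it was 457.1, 471.7 and 375.1 CPM, from 2102, 1695 and 2856 reads. Every library with Dox was below every library without Dox, and the lowest control value was more than 3 times the highest value with Dox. The mean went from 1795 ± 301 CPM (SD, n = 3) to 435 ± 52.0 (SD, n = 3), which left 24.2% of the level. The log2 fold change was −2.05 (standard error 0.15). SFN ranked 34th in mean level among the 12233 genes without Dox and 275th with Dox, and 50 of them had a lower log2 fold change. SFN overlaps no other annotated gene and has no annotated pseudogene. Whether its reads also fit other places in the genome was not examined.

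**Figure D1:**
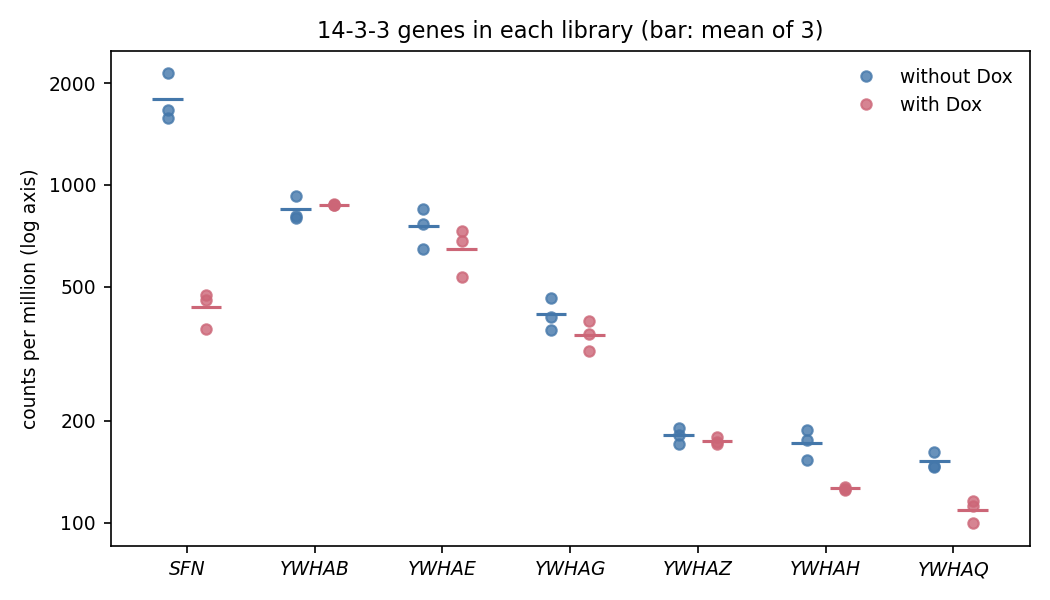
CPM, on a log axis, of the 7 genes in each library, with a bar at the mean of the 3 libraries of a group. SFN is at 1582 to 2139 CPM without Dox and at 375.1 to 471.7 with Dox, while the groups overlap for YWHAB, YWHAE, YWHAG and YWHAZ.

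Of the 6 YWHA genes, 2 fell and 4 did not pass the test. Over all genes tested, 25.5% were called at an adjusted p under 0.05, of which those lower with Dox made up 13.7% and those higher 11.9% of the genes tested. YWHAQ (14-3-3θ, known from T cells and brain) was at 145.8, 147.6 and 162.2 CPM without Dox and 112.2, 116.0 and 99.7 with Dox. Its groups did not overlap, and the log2 fold change was −0.48 (standard error 0.12, edgeR adjusted p = 0.00828). YWHAH (14-3-3η, abundant in brain) was at 175.5, 187.6 and 153.3 CPM without Dox and 125.7, 125.2 and 127.9 with Dox. Its groups did not overlap either, and the log2 fold change was −0.44 (standard error 0.12, edgeR adjusted p = 0.0134). The YWHAH call was lost without replicate 1 (adjusted p = 0.0536) or replicate 2 without Dox (0.0628), without replicate 1 with Dox (0.0558), and under scaling by library totals (0.0597). YWHAH is overlapped by an antisense gene, YWHAH-AS1, and by another protein-coding gene model on its own strand, neither of which is in the table, and the use of strand in counting is not stated. Over all genes tested, 39.5% had CPM ranges that did not overlap between the groups.

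The other 4 YWHA genes overlapped between the groups. YWHAB (14-3-3β, a binding partner of RAF kinases and BAD) was at 799.3, 929.4 and 809.4 CPM without Dox and 870.0, 876.6 and 873.0 with Dox. The fitted log2 difference was 0.05, with a 95% interval of −0.21 to 0.30 and an edgeR adjusted p of 0.826. YWHAE (14-3-3ε, the member with the least SFN-like sequence) was at 646.5, 847.9 and 766.8 CPM without Dox and 680.2, 727.7 and 534.9 with Dox. Its log2 difference was −0.22 (−0.52 to 0.08, edgeR adjusted p = 0.287), and the groups shared much of their range. YWHAG (14-3-3γ, abundant in brain and muscle) was at 407.5, 372.8 and 463.1 CPM without Dox and 396.4, 322.0 and 362.1 with Dox. Its log2 difference was −0.20 (−0.48 to 0.07, edgeR adjusted p = 0.278). YWHAZ (14-3-3ζ, a common reference gene whose locus is amplified in several carcinomas) was at 182.1, 171.2 and 191.0 CPM without Dox and 178.8, 171.4 and 173.8 with Dox. Its log2 difference was −0.06 (−0.30 to 0.19, edgeR adjusted p = 0.772), and the groups overlapped. GENCODE 44 lists 2 pseudogenes of YWHAB, 6 of YWHAE, 8 of YWHAQ and 9 of YWHAZ. Under these names only 2 of YWHAE had rows in the counts table, with at most 9 reads in a library. Whether reads that fit both a gene and a pseudogene were left out of the counts is not stated.

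**Figure D2:**
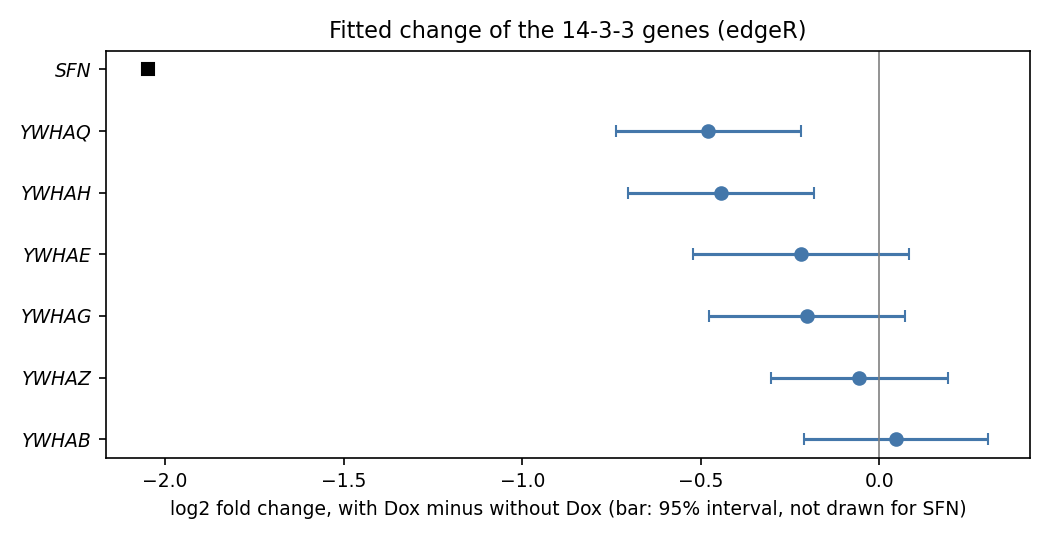
Fitted log2 fold changes, with Dox minus without Dox, of the 7 genes, with 95% intervals for the 6 YWHA genes. The intervals of YWHAH and YWHAQ lie below 0, those of the other 4 cross it, and SFN, which was selected on this change, is drawn without an interval at −2.05.

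The levels order the family differently in the groups. The order, the sums and the share of SFN compare the genes as counted. Any reads lost because they also fit the pseudogenes named above would lower YWHAB, YWHAE, YWHAQ and YWHAZ. No pseudogene is listed for SFN. Without Dox the order was SFN, YWHAB, YWHAE, YWHAG, YWHAZ, YWHAH and YWHAQ, with ranges that overlapped between YWHAB and YWHAE, between YWHAZ and YWHAH and between YWHAH and YWHAQ. With Dox it was YWHAB, YWHAE, SFN, YWHAG, YWHAZ, YWHAH and YWHAQ, and only SFN and YWHAG overlapped among neighbours. The summed level of the 6 YWHA genes was 2357, 2656 and 2546 CPM without Dox and 2363, 2339 and 2171 with Dox. These sums overlapped (log2 ratio −0.14, exact two-sided permutation p = 0.2, where 3 against 3 libraries cannot go below 0.1). All 7 genes together summed to 4315 ± 419 CPM in the controls and 2726 ± 155 CPM with Dox (SD, n = 3 each). SFN made up 41.4% ± 3.14 of this sum in the controls and 15.9% ± 1.06 with Dox (SD, n = 3 each). These 2 quantities include SFN and were not tested.

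**Figure D3:**
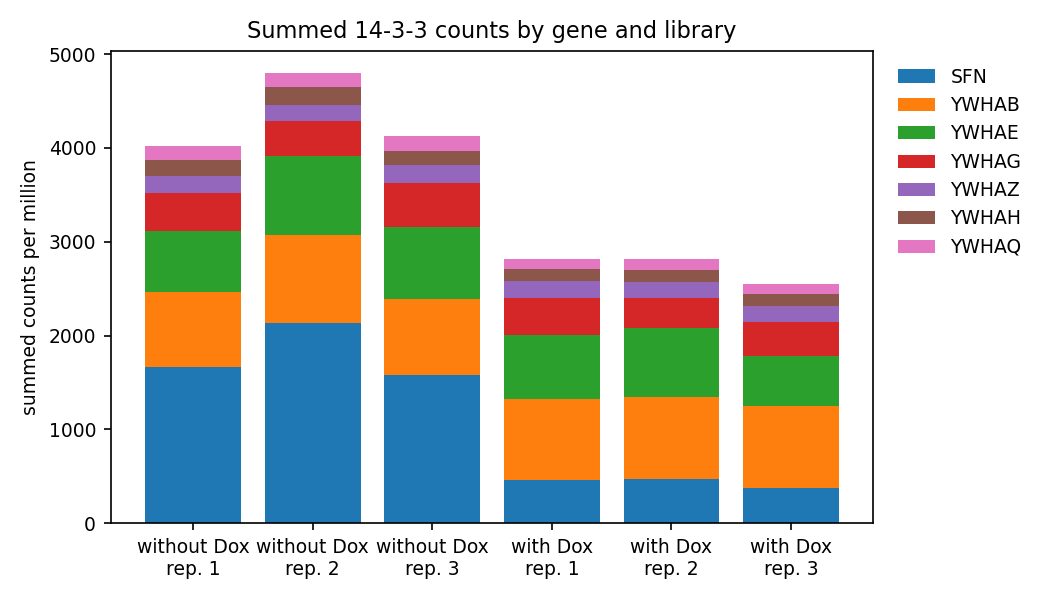
Summed CPM of the 7 genes in each library, stacked by gene. The SFN portion makes up 41.4% of the sum on average without Dox and 15.9% with Dox, and the 6 YWHA genes sum to between 2171 and 2656 CPM in the 6 libraries.

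Within the sum of the 6 YWHA genes, YWHAB made up 31.8% to 35.0% in the control libraries and 36.8% to 40.2% with Dox, without overlap. YWHAH went from 6.84% ± 0.739 to 5.52% ± 0.321 (SD, n = 3 each) and YWHAQ from 6.04% ± 0.426 to 4.77% ± 0.186, also without overlap. Each of these 3 shares had an exact two-sided permutation p of 0.1, the smallest that 3 against 3 libraries allow, and 0.2 after adjustment over the 6 shares. The shares of YWHAE, YWHAG and YWHAZ overlapped between the groups. Shares of a sum depend on one another, so a share can rise where other genes fall. The CPM of YWHAB itself overlapped between the groups (log2 difference 0.05, edgeR adjusted p = 0.826).

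Known partners of 14-3-3 proteins were then read from hand-compiled lists, beside a median log2 fold change of 0.02 and 25.5% called over all genes tested. The partners in the cell cycle had the lowest median of the lists, −0.75, and 8 of 12 fell while none rose (1 rose under scaling by library totals). CCNB1, the cyclin B1 that SFN holds in the cytoplasm with CDK1, went from 306.9 ± 48.9 CPM to 126.4 ± 25.2 (SD, n = 3 each). It thus changed by −1.28 on the log2 scale (standard error 0.16, edgeR adjusted p = 1.259e-05). CDC25B, a phosphatase that activates cyclin-dependent kinases, fell from 134.3 to 65.4 CPM (log2 fold change −1.04, adjusted p = 2.028e-05). Neither group of libraries overlapped the other for either gene.

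The other partner lists moved less, or both ways. Of 8 apoptosis partners 2 rose and 1 fell, with a median of 0.31. BCL2L11, which encodes the death-promoting protein BIM, rose by 0.69 on the log2 scale (adjusted p = 0.00728), from 17.6 to 28.4 CPM. FOXO4 (log2 fold change 0.52, adjusted p = 0.0391) and FOXO1 (−0.52, adjusted p = 0.0428), transcription factors that 14-3-3 proteins keep out of the nucleus, passed in opposite directions. The FOXO4 call was lost in 5 of the 6 fits that leave out 1 library, all but that without replicate 2 with Dox (adjusted p 0.0837 to 0.1099). The FOXO1 call was lost in 4 of them, without any of the controls or without replicate 1 with Dox (0.0756 to 0.180). The number of apoptosis partners called was 1 without any of the controls or without replicate 1 with Dox, 2 without replicate 3 with Dox and 4 without replicate 2 with Dox. Of 14 growth and energy signalling partners, only IRS1, an adaptor of the insulin receptor, was called, at −0.83 (adjusted p = 0.0102), and the median was −0.04. Without control replicate 3 it was no longer called (0.0718), and 2 partners were called without replicate 3 with Dox. Of 12 transcription and chromatin partners, 3 rose and 1 fell, with a median of 0.47. The class IIa histone deacetylase HDAC5 rose by 0.69 (adjusted p = 0.00593) and CRTC1, a coactivator of CREB, by 0.74 (0.0252), whereas HDAC7, of the same class as HDAC5, fell by 0.67 (0.00411). The other riser, MLXIPL, a glucose-responsive transcription factor named after its value was seen, was at 0.68 (0.0332). The CRTC1 call was lost without control replicate 1 (0.0821), control replicate 3 (0.141) or replicate 1 with Dox (0.101), and without control replicate 1 or 3 this list had 2 calls. Of 11 cytoskeleton and polarity partners, 2 rose and 2 fell, with a median of 0.07. ARHGEF2, an activator of RhoA, rose from 7.31 to 21.0 CPM (log2 fold change 1.501, adjusted p = 0.00103), and the kinesin KIF13B rose from 93.9 to 142.2 (0.60, 0.00221). KRT18, a luminal keratin, fell from 248.1 to 166.9 CPM (−0.57, 0.00189). The kinesin KIF1C fell from 230.9 to 168.4 CPM (−0.46, 0.0111). Its call was lost, with a log2 fold change of −0.40 without control replicate 2 (0.0563) and −0.44 without replicate 1 with Dox (0.0558).

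**Figure D4:**
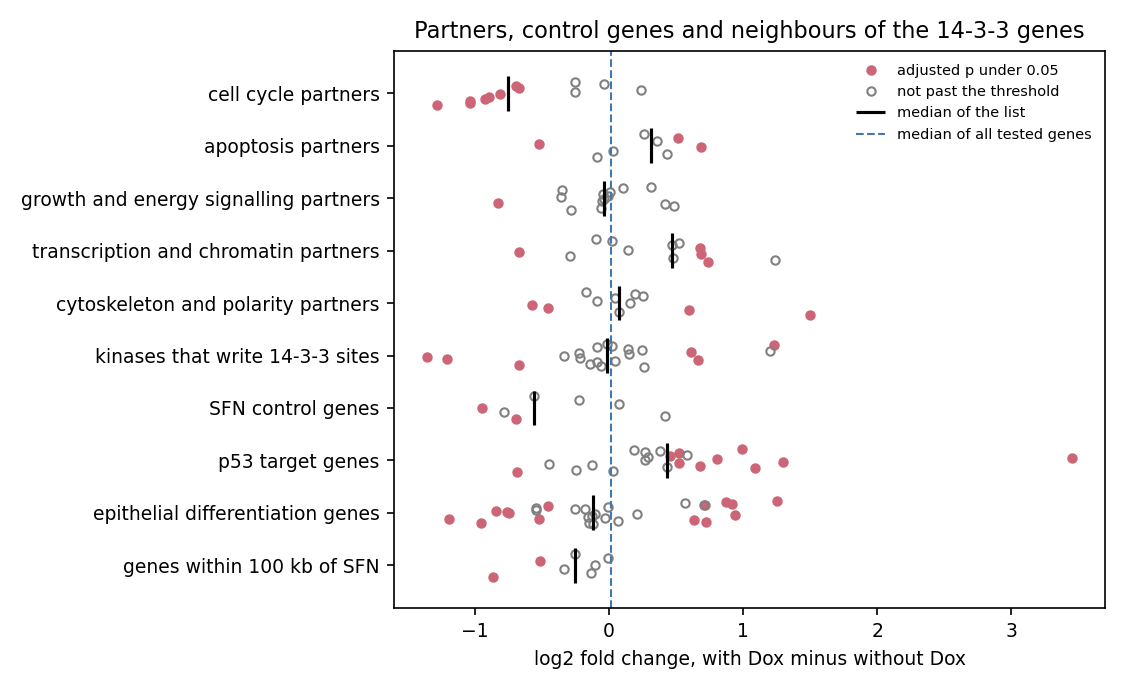
Log2 fold changes, with Dox minus without Dox, of the members of each list, filled where the adjusted p was under 0.05, with a black line at each list's median and a dashed line at the median of all genes tested. The cell cycle partners lie lowest, with a median of −0.75, and the p53 targets are mostly above 0.

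The kinases, control genes and p53 targets below were read beside 25.5% called over all genes tested (13.7% lower and 11.9% higher with Dox). Of 21 kinases that can phosphorylate 14-3-3 sites, 3 rose and 3 fell, with a median of −0.02. The number that rose was 1 without replicate 1 with Dox and 5 without replicate 2 with Dox. PIM3, a survival kinase, was the lowest of them, from 1784 ± 173 to 694 ± 107 CPM (SD, n = 3 each). Its log2 fold change was −1.36 (edgeR adjusted p = 1.955e-06). The checkpoint kinase CHEK1, also counted above among the cell cycle partners that fell, fell by 0.67 (8.216e-04). SIK3, a salt-inducible kinase that itself binds 14-3-3 proteins, rose by 1.23 (6.494e-04) and PRKACB, a catalytic subunit of protein kinase A, by 0.61 (0.0140), a call lost without replicate 1 with Dox (0.0739). The remaining calls, named after their values were seen, were the survival kinase PIM1 at −1.21 (0.00290) and MARK4, a microtubule affinity kinase, at 0.66 (0.0306). Of 7 genes known to control SFN, 2 fell and none rose, with a median of −0.56, but 1 rose without control replicate 2, without replicate 3 with Dox, and under scaling by library totals. EZH2, the histone methyltransferase of Polycomb, fell from 208.6 to 109.1 CPM (log2 fold change −0.95, adjusted p = 2.548e-04), and DNMT1, which keeps CpG methylation through replication, fell from 510.5 to 315.6 CPM (−0.70, 0.00115). Of 21 other p53 targets, 9 rose and 1 fell. GADD45A, a growth-arrest gene, rose from 32.6 to 79.8 CPM (log2 fold change 1.30, adjusted p = 4.216e-06), whereas AEN, an apoptosis nuclease, fell from 79.2 to 49.0 (−0.69, 0.00138). PLK2, a polo-like kinase, was at 1.86 to 2.44 CPM without Dox and 23.5 to 26.9 with Dox. It passed the filter on low counts through the libraries with Dox, where it was high, and was dropped where at least 10 counts were asked of every library.

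SFN is an epithelial gene, so 29 other genes of epithelial differentiation were read beside it. Of these, 7 rose and 7 fell, with a median of −0.12, where 25.5% of all genes tested were called. Without control replicate 3, 6 rose and 4 fell. The riser TRIM29, named after its values were seen, was at a mean of 1.49 CPM without Dox and 3.38 with Dox. It passed the filter on low counts through the libraries with Dox, where it was higher, and is counted among the 7 that rose. S100A6, a calcium-binding protein, rose from 1509 ± 214 to 2844 ± 495 CPM (SD, n = 3 each, log2 fold change 0.91, edgeR adjusted p = 2.678e-04), and ST14, the membrane protease matriptase, from 103.2 to 189.1 (0.88, 3.903e-05). ELF3, an epithelial ETS transcription factor, fell from 203.5 to 89.2 CPM (log2 fold change −1.19, adjusted p = 1.394e-06), and the tight-junction gene CLDN4 from 237.8 to 122.3 (−0.96, 3.971e-05). The list as a whole did not move one way.

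Around SFN on chromosome 1, 7 genes within 100 kb were tested, of which 2 were lower and none higher, with a median of −0.26. Over all genes tested, 25.5% were called, near the share that 2 of 7 makes, and the median was 0.02. The nearest tested genes did not pass. ZDHHC18, 5545 bases before SFN, had a log2 fold change of −0.26 (edgeR adjusted p = 0.371), and GPN2, 11676 bases after it, −0.34 (0.279). PIGV (62490 bases before) was at −0.01 (0.977) and GPATCH3 (26032 bases after) at −0.14 (0.619). The 2 genes that passed, named after their values were seen, were ARID1A, a chromatin remodeller subunit 81045 bases before SFN, at −0.86 (adjusted p = 5.011e-05), and NUDC, 35782 bases after it, at −0.51 (0.0132). Without control replicate 2, NUDC was not called (0.0829), which left 1 of the 7. None of the 7 fell as far as SFN, but SFN was selected on the size of its fall, so this comparison tests nothing.

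The genes whose pattern over the 6 libraries lay nearest to that of SFN were FAM177B, FADS1, PRUNE2, KLK1 and C1orf21. The measure was the root mean square difference of log2(CPM + 1), each gene centred on its own mean, over 9419 genes with a mean of at least 50 counts. It was 0.0923 for FAM177B, 0.114 for FADS1, 0.116 for PRUNE2, 0.187 for KLK1 and 0.191 for C1orf21.

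**Figure D5:**
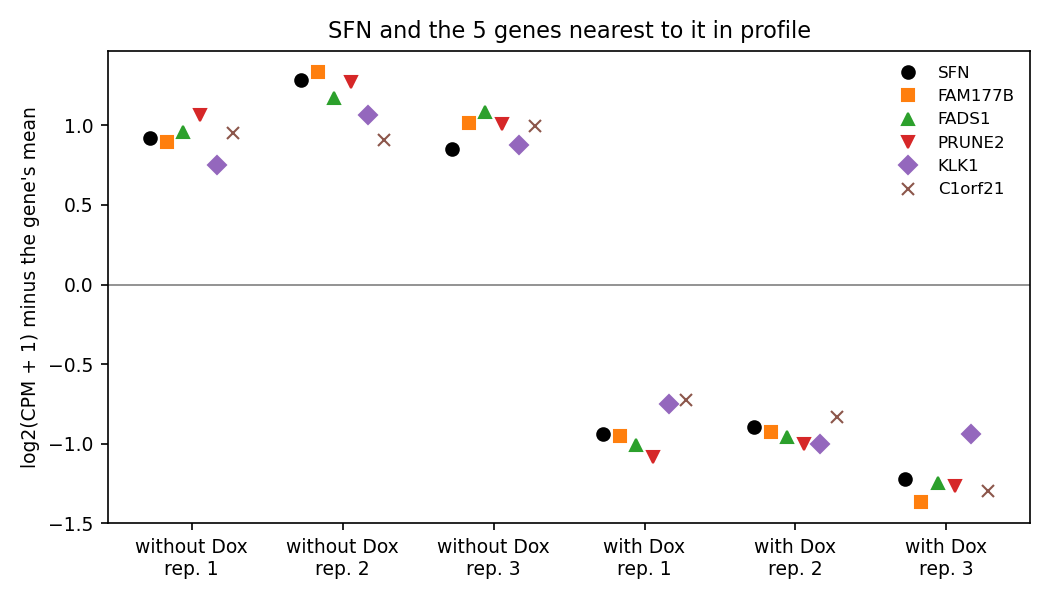
Log2(CPM + 1) minus the gene's own mean over the 6 libraries, for SFN and the 5 genes nearest to it. In all 6 genes, the 3 libraries without Dox lie above 0 and the 3 with Dox below, which any gene with such a fall shares.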

How the data were processed

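Single-end reads of 100 bp were aligned by the authors with STAR (hg38). They deposited a table of raw counts, 1 row per gene symbol, for the 6 libraries. The submitters' processing notes also name CASAVA 1.8.2, FastQC, HTSeq and edgeR, and the annotation is not given in the sources used here. The authors also deposited normalized values, a signal whose method is not stated, which served as an alternative. The sample labels name the FWD kit and the paper's methods the REV kit, and the use of strand in counting is not stated. HTSeq's summary lines (reads on no gene or on several) entered neither the library sizes nor the tests, and made up 32.5% to 39.5% (no gene) and 3.05% to 3.37% (ambiguous) of a library. Counts were filtered with filterByExpr, normalized by TMM and tested with edgeR 4.0.16's quasi-likelihood test, with p adjusted by Benjamini-Hochberg over all 12233 genes (adjusted p under 0.05) in R 4.3.3 with limma 3.58.1. DESeq2 1.42.0 was an alternative. Sums and shares were tested by exact permutation in scipy 1.17.1. The scripts were tested on simulated data. Groups follow the sample labels, and 95% intervals use the edgeR standard error.

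The members and lists were chosen with earlier results of these data known, and the 9 lists were compiled by hand. Among the tested genes, CHEK1, MARK2, MARK3, BAX and KDF1 are each in more than 1 list, so the counts of the lists are not fully separate. Named were the members, the 2 most significant genes in each direction per list with a mean of at least 50 counts, the 2 nearest tested genes on either side of SFN, the 5 genes nearest in pattern, and ABHD5. Deviations of same-numbered libraries from their group means correlated at −0.01, 0.25 and 0.086, so the numbers were not taken as pairs. Reads carry no molecular identifiers, so the 3-count limit covers counting error only. A few genes are not reported here. Protein sequences came from GENCODE 44 transcripts.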

Additional observations from a re-analysis of the deposited data

How the results depend on the processing

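The SFN log2 fold change stayed between −2.13 and −1.91 over 14 alternatives, −2.04 with a replicate block, which changed no call among the 6 YWHA genes. YWHAQ kept its call in all 14 and YWHAH in 10. Without TMM, scaling by library totals alone moved the median of all genes from 0.02 to 0.14, and higher genes went from 46.4% to 65.7% of the calls. Under it 1 YWHA gene was called, YWHAZ was at 0.066, PIGV at 0.11 and 3 growth and energy partners were called. PIGV was at 0.045 with upper-quartile normalization and 0.013 with at least 10 counts in every library. DESeq2 called 1 apoptosis partner. With each library left out in turn, 1 to 2 YWHA genes were called, YWHAB lay between −0.0076 and 0.11 and PIGV between −0.093 and 0.086, and the calls were 0 to 2 growth and energy, 1 to 4 apoptosis, 2 to 4 transcription and chromatin partners and 1 to 2 genes near SFN. The causes were not tested. Of 29 named genes that passed, 22 kept their call in every setting that tested them (PLK2 was not tested with at least 10 counts in every library). FOXO4 lost it in 7 of 14, FOXO1 in 8, CRTC1 and KIF1C in 3, and IRS1, PRKACB and NUDC in 1, namely without replicate 3 without Dox, replicate 1 with Dox and replicate 2 without Dox.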
